A study of Ovis aries with 36 samples.

Results

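Muscle shrinks when protein breakdown outpaces protein synthesis, and most of that breakdown runs along 2 routes. In the ubiquitin route, E3 ligases tag myofibrillar proteins for the proteasome, whereas in autophagy, receptors gather tagged proteins and worn mitochondria into vesicles that fuse with lysosomes. FOXO transcription factors switch on genes of both routes when insulin and growth factor signalling is low, as in fasting. A set of 9 genes of these routes was followed in tissues of fetal sheep: the ligases FBXO32 (atrogin-1), TRIM63 (MuRF1) and UBR3, the regulators FOXO1 and FOXO3, the autophagy genes SQSTM1 (p62), MAP1LC3B (LC3B) and BNIP3, and the lysosomal protease CTSL (cathepsin L). Members were the loci whose name matched one of these symbols, with loci of the same name summed. Under this rule 8 of the 9 had a locus, out of 31427 genes in the muscle table and 31089 and 31852 in the subcutaneous and perirenal tables, and MAP1LC3B was not analysed here.

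RNA was sequenced from longissimus dorsi muscle and from 2 fat depots, subcutaneous and perirenal, of fetuses whose Polypay dams, bred to a single sire, received from mid to late gestation a diet based on corn (CN), dried corn distillers grains (DG) or alfalfa haylage (HY, given as hay in the labels). Feeding lasted until the tissues were taken, which was at a single stage of late gestation for all fetuses. CN and DG were limit-fed to match the energy intake from HY, which was fed freely, and to keep the weight gain of the dams similar. CN supplied the least crude protein. The diets also differed in fibre, starch and fat, so protein was not the only difference between them. The 36 libraries were made from RNA pools, 4 per diet and tissue, 2 female (F1 and F2) and 2 male (M1 and M2). Each pool combined a few fetuses of 1 sex, except that by the pool numbers CN F2 held RNA of a single fetus. It is called a pool here for brevity. The pools came from 26 fetuses of 15 dams, and some pools of a diet shared dams, so p-values measure the spread between pools that may not be fully independent. No animals without one of these diets were included, and the comparison of interest was how the lower protein CN diet differed from both other diets in each tissue.

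Total counts ranged from 6705766 to 29625146 per library, with a median of 14406914. In muscle the CN libraries were the shallowest, with 13749762 to 19387181 counts, against 20370147 to 29625146 in DG and 19071024 to 22831074 in HY. Of 18 skeletal muscle markers, all were above 0 in every muscle library, and their summed level there was 105652 to 154291 CPM (read counts scaled to the size of the library). The same sum ranged from 990 to 172362 CPM in the subcutaneous libraries, where it was over 10000 CPM in all but 4 pools (CN M1, DG M1, HY F1 and HY M1), and from 37.2 to 796 CPM in the perirenal libraries. Adipocyte markers summed to 2318 to 11706 CPM in subcutaneous and 6762 to 17978 CPM in perirenal adipose tissue against 77.7 to 167 CPM in muscle, where LEP was at 0. The 5 brown adipocyte markers, led by UCP1 in fat, summed to 672 to 1533 CPM in perirenal and 56.4 to 244 CPM in subcutaneous adipose tissue. In muscle, led by PPARGC1A, they summed to 38.8 to 55.3 CPM. Among them, PPARGC1A (median 4.81 CPM in perirenal, 24.0 CPM in subcutaneous adipose tissue) and ELOVL3 (0.216 and 3.00 CPM) went against the sum. In these bulk samples, fewer cells of a type and less RNA per cell cannot be told apart.

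In longissimus dorsi muscle, SQSTM1 was the member that differed between diets. SQSTM1 encodes p62, the receptor that binds ubiquitin-tagged cargo and tethers it to the growing autophagosome. Its locus lies at chr5:1102454-1129695 of Oar_v3.1. In pools F1, F2, M1 and M2, its level was 7.45, 6.81, 7.81 and 7.65 CPM in CN, 26.9, 18.8, 23.9 and 17.0 CPM in DG, and 23.8, 23.8, 15.6 and 17.9 CPM in HY. All 4 CN pools lay below every DG and HY pool, and the CN pools were also the most alike. Behind these values stood 109 to 133 reads per CN library, 417 to 620 per DG library and 302 to 573 per HY library.

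The mean level of SQSTM1 was 7.43 ± 0.440 CPM (SD, n = 4) in CN, 21.7 ± 4.53 CPM in DG and 20.3 ± 4.16 CPM in HY. Expression was thus 2.92-fold higher in DG than in CN (log2 CN/DG = -1.54, SE 0.178, FDR = 0.00298, edgeR quasi-likelihood test) and 2.74-fold higher in HY than in CN (log2 CN/HY = -1.45, SE 0.178, FDR = 0.00621). By p-value it ranked 3 of 18157 genes in both comparisons, which share the CN pools. DG and HY differed by 0.09 on the log2 scale (SE 0.170, FDR = 0.9998), well within the spread of the pools. Without CN F2, the single fetus, SQSTM1 gave a log2 CN/DG of -1.502 (FDR = 0.00692) and a log2 CN/HY of -1.41 (FDR = 0.00379). An exact two-sided permutation test gave p = 0.0286 for CN against either diet, the smallest that 70 arrangements of 4 against 4 pools allow. SQSTM1 and C5orf45 share a span, and C5orf45 had a log2 CN/DG of -0.39 and a log2 CN/HY of -0.02, neither called.

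Several other measures of the muscle libraries are given here by diet. The endothelial and smooth muscle sums were not tested between diets. The depth of the CN libraries was 0.702 times that of DG, and every CN library was shallower than every DG library. Its exact permutation p of 0.0286 was the smallest that 70 arrangements allow. A single such value cannot pass after adjustment over 27 tests (adjusted p = 0.771). With all muscle libraries thinned to the lowest total, SQSTM1 gave a log2 difference of -1.52 (FDR = 0.00258) for CN/DG and -1.45 (FDR = 0.00528) for CN/HY. The summed level of 4 endothelial markers was 479 to 569 CPM in CN, 551 to 738 CPM in DG and 589 to 714 CPM in HY, all 4 markers being above 0, and that of 2 smooth muscle markers was 62.6 to 98.6 CPM in CN, 80.7 to 115 CPM in DG and 93.9 to 109 CPM in HY. Of 7 adipocyte markers, 6 were above 0 in every muscle library and LEP was at 0. Their sum had a CN/DG ratio of 0.816 and a CN/HY ratio of 0.975, and without LPL, which dominates it, the ratios were 0.309 and 0.619 (exact permutation p = 0.0571 and 0.343, adjusted p = 0.411 and 0.771 over 18 tests). This smaller sum was 6.52 to 17.0 CPM in CN, 11.6 to 59.0 CPM in DG and 6.63 to 35.3 CPM over the HY pools. In the endothelial sum every HY pool lay above every CN pool, whereas DG overlapped CN. The part of these cell types in the SQSTM1 result was not tested. The summed skeletal muscle markers had a CN/DG ratio of 1.01 and a CN/HY ratio of 0.976, both within the spread of the pools.

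**Figure D1:**
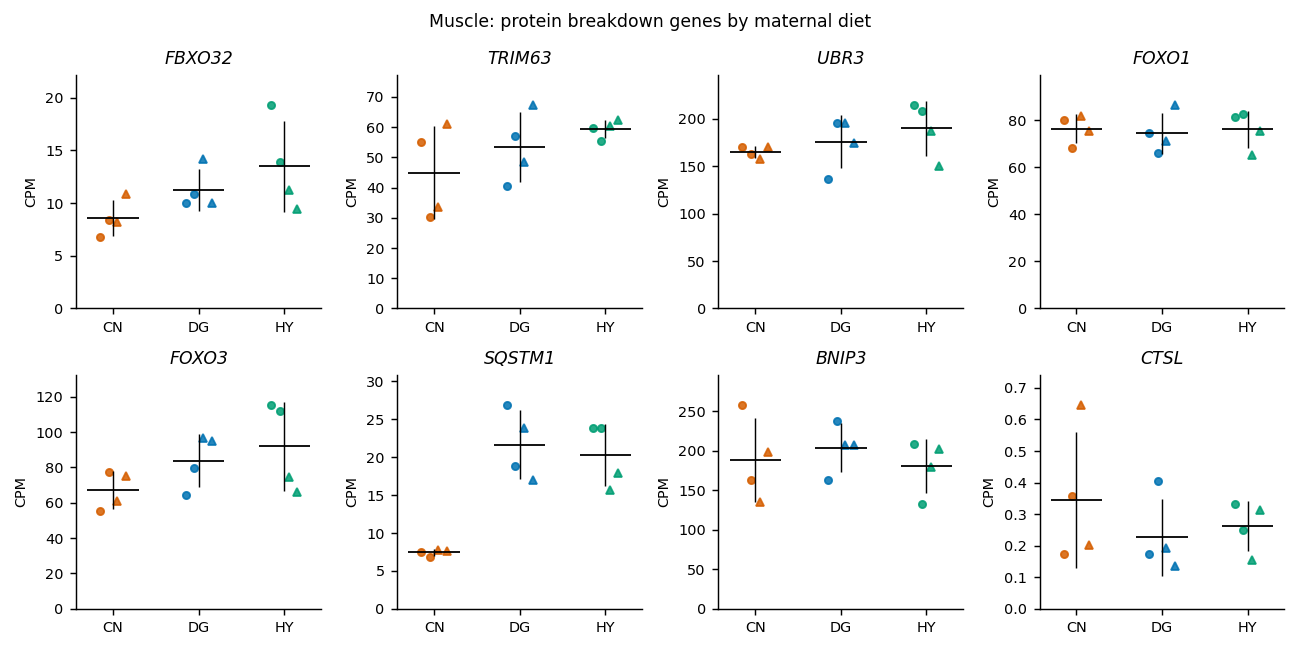
Level of each gene in longissimus dorsi muscle (y axis, CPM, linear from 0) by maternal diet (x axis: CN, DG, HY). Circles are female and triangles male pools, horizontal lines are means of 4 pools and vertical lines their SD; SQSTM1 is the one panel in which every CN pool (6.81 to 7.81 CPM) lies below every DG and HY pool.

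FBXO32 encodes atrogin-1, a muscle ligase of the SCF type whose transcript rises in many forms of atrophy. In muscle it was present at 6.81, 8.45, 8.24 and 10.9 CPM in CN, at 10.05, 10.8, 14.2 and 9.98 CPM in DG, and at 19.3, 13.9, 11.2 and 9.46 CPM in HY. The lowest 3 of the 12 values were CN pools, but CN M2 lay inside the range of both other diets. The mean was 8.60 ± 1.70 CPM in CN and 13.5 ± 4.30 CPM in HY (log2 CN/HY = -0.65, SE 0.219, FDR = 0.115), which passed FDR ≤0.20 but not FDR ≤0.05, and the log2 CN/DG was -0.39 (SE 0.219, FDR = 0.397). The exact permutation test for CN against HY gave p = 0.0571.

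TRIM63 encodes MuRF1, the ligase that marks thick filament proteins such as myosin heavy chain. Its muscle values were 55.1, 30.2, 33.5 and 61.0 CPM in CN, 40.6, 57.1, 48.4 and 67.3 CPM in DG, and 59.7, 55.4, 60.3 and 62.4 CPM in HY. The HY pools were close together, whereas CN F2 and CN M1 were low and CN F1 and CN M2 were at the level of the other diets. The log2 differences were -0.25 for CN/DG (SE 0.208, FDR = 0.580) and -0.40 for CN/HY (SE 0.208, FDR = 0.293), neither called. The TRIM63 locus, at chr2:239903974-240061241, shares its span with SLC30A2, PAFAH2, EXTL1 and ENSOARG00000005477, a gene without a symbol, so reads of these genes may not be fully separated.

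UBR3 belongs to the UBR family of ligases, some of whose members recognise proteins by their N-terminal residue. In muscle it was measured at 158 to 171 CPM in CN, 137 to 196 CPM in DG and 151 to 215 CPM in HY. Its CN pools lay inside the range of both other diets, with log2 differences of -0.09 for CN/DG and -0.20 for CN/HY (SE 0.134 for both).

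The FOXO factors act upstream of both routes. FOXO3, which can drive ligase and autophagy genes alike, was at 55.3, 77.4, 61.0 and 75.4 CPM in CN muscle, at 64.4, 79.95, 96.7 and 94.7 CPM in DG, and at 115, 112, 74.4 and 66.2 CPM in HY. The ranges of the 3 diets overlapped, and in HY both female pools were above both male pools. The log2 CN/HY of FOXO3 was -0.45 (SE 0.191, FDR = 0.203, unadjusted p = 0.0330), and the log2 CN/DG was -0.32 (SE 0.191, FDR = 0.427). FOXO1 was the most even member, at 65.1 to 86.4 CPM over the 12 muscle pools, with log2 differences of 0.04 for CN/DG and 0.00 for CN/HY (SE 0.112 for both).

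BNIP3, a mitochondrial outer membrane protein that acts as a mitophagy receptor and is a known FOXO3 target, spanned 133 to 258 CPM in muscle. Its highest value and its second lowest both came from CN pools, and the log2 differences were -0.11 for CN/DG and 0.06 for CN/HY (SE 0.194 for both). CTSL, a cysteine protease of the lysosome, had only 3 to 9 counts per muscle library (0.136 to 0.645 CPM) and was removed by the filter on low counts. Its close relative CTSV was at 70.2 to 107 CPM in the same libraries, and how reads were divided between these cathepsins is not known, so CTSL values are uncertain in all tissues.

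Counted together, 7 of the 8 members with a locus were tested in muscle. In CN against DG, 6 were lower and 1 higher in CN by point estimate, while 49.6% of all genes tested were lower in CN. Of the 7, 1 (SQSTM1) was called at FDR ≤0.05, against 1.02% of all genes tested called in either direction and 0.986% called lower in CN. In CN against HY, 5 were lower in CN, while 47.9% of all genes tested were lower in CN. Here too 1 was called, against 2.95% of all genes called and 2.64% called lower in CN. At unadjusted p under 0.05 by edgeR there were 1 of 7 members for CN/DG and 3 for CN/HY. Over all 18157 genes tested there were 2964 and 3693. At FDR ≤0.20, SQSTM1 and FBXO32 passed in CN against HY, against 16.0% of all genes. SQSTM1 was also the only member whose CN pools lay entirely below those of DG or of HY, as did those of 5.45% and 7.11% of all genes tested. The median log2 difference of the 7 members was -0.25 for CN/DG and -0.40 for CN/HY, against 0.00 and 0.02 over all genes tested. In DG against HY no member was called by edgeR, with 0 members at unadjusted p under 0.05 (2.19% of all genes) and 0 called by DESeq2 (2 genes in all), against 0% of all genes called by edgeR.

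**Figure D2:**
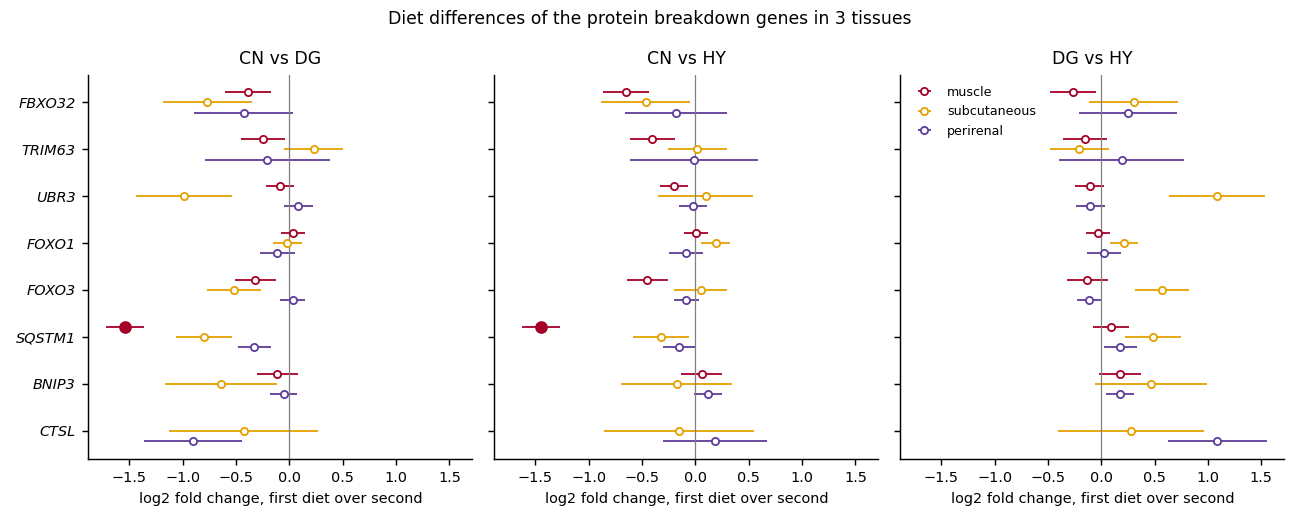
Log2 fold change of each gene (x axis, first diet over second, error bars are SE) in the 3 tissues, one panel per pair of diets, from fits to 12 pools per tissue. Large filled points passed FDR ≤0.05, and the 2 of these are SQSTM1 in muscle at -1.54 and -1.45; CTSL has no muscle value because it failed the filter.

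Other genes of the same routes were read from 6 lists: ubiquitin ligases and conjugation, core autophagy, selective autophagy and mitophagy, lysosome, FOXO regulators and targets, and calpains. In muscle, the genes called in CN against DG were all lower in CN: 1 of 27 ubiquitin genes, 1 of 22 core autophagy genes, 2 of 8 selective autophagy genes, 0 of 16 lysosomal genes, 1 of 22 FOXO-related genes and 0 of 4 calpains. In CN against HY the counts lower in CN were 2, 2, 2, 0, 1 and 0 in the same order, and none was higher. Most called genes went this way. Over all genes tested, 179 of 186 called for CN/DG and 480 of 536 called for CN/HY were lower in CN. These were 0.986% and 2.64% of all genes tested. Whether the lists exceeded these shares was not tested. The FOXO-related gene called in both comparisons was KLF15, which passed the filter on low counts through DG and HY alone. That entry therefore carries no weight. No gene of the 6 lists was called by edgeR in DG against HY in muscle or in any diet comparison of the adipose tissues. In each of these comparisons 0% of all genes tested were called, so this says nothing particular of the lists. The median log2 differences of the lists in muscle lay between -0.19 and -0.01 for CN/DG and between -0.27 and 0.05 for CN/HY. Over all genes tested they were 0.00 and 0.02.

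The 2 selective autophagy genes concern mitochondria. PINK1, the kinase that marks damaged mitochondria for removal, was at 6.46, 3.33, 6.16 and 8.40 CPM in CN, 13.6, 15.8, 11.7 and 12.9 CPM in DG, and 17.8, 13.3, 14.7 and 10.98 CPM in HY. Every CN pool was below every other pool, with a log2 CN/DG of -1.16 (SE 0.234, FDR = 0.0336) and a log2 CN/HY of -1.23 (SE 0.235, FDR = 0.0204). BCL2L13, a mitophagy receptor of the outer membrane, was at 11.5 to 16.6 CPM in CN, 20.2 to 34.1 CPM in DG and 22.1 to 30.1 CPM in HY. It also showed no overlap between CN and the other diets (log2 CN/DG = -1.03, SE 0.172, FDR = 0.0151, and log2 CN/HY = -0.94, SE 0.172, FDR = 0.0169). BNIP3, the mitophagy receptor among the members, had overlapping pools in all diets, as given above.

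AMBRA1, a scaffold that helps to start autophagy through the Beclin 1 complex, was at 6.46 to 8.19 CPM in CN against 10.5 to 20.1 CPM in DG and 12.9 to 14.8 CPM in HY (log2 -0.93 for both, FDR = 0.0334 and 0.0238). UBR4, a large ligase of the same family as UBR3, was at 51.1 to 61.2 CPM in CN, 77.2 to 101 CPM in DG and 73.4 to 106 CPM in HY (log2 -0.58 and -0.64, FDR = 0.0453 and 0.0222). KLF15 is a glucocorticoid-responsive factor linked to amino acid breakdown in muscle. Its log2 differences were -1.77 and -1.82 (FDR = 0.0178 and 0.0142), but from 0.346 ± 0.0504 CPM in CN, a level of few reads. It had 4 to 8 counts per CN library against 20 to 40 counts in DG and HY. KLF15 thus passed the filter on low counts through DG and HY alone, and its calls carry no weight. Called against HY alone and named after their values were seen were TRIM54 (MuRF3), a relative of TRIM63 (log2 CN/HY = -0.49, FDR = 0.0464), and ATG7, the E1-like enzyme of autophagy conjugation (log2 CN/HY = -0.75, FDR = 0.0483). The DG against HY comparison, which in this fit is the difference between both CN comparisons, called neither gene. A larger difference from HY than from DG was thus not established.

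**Figure D3:**
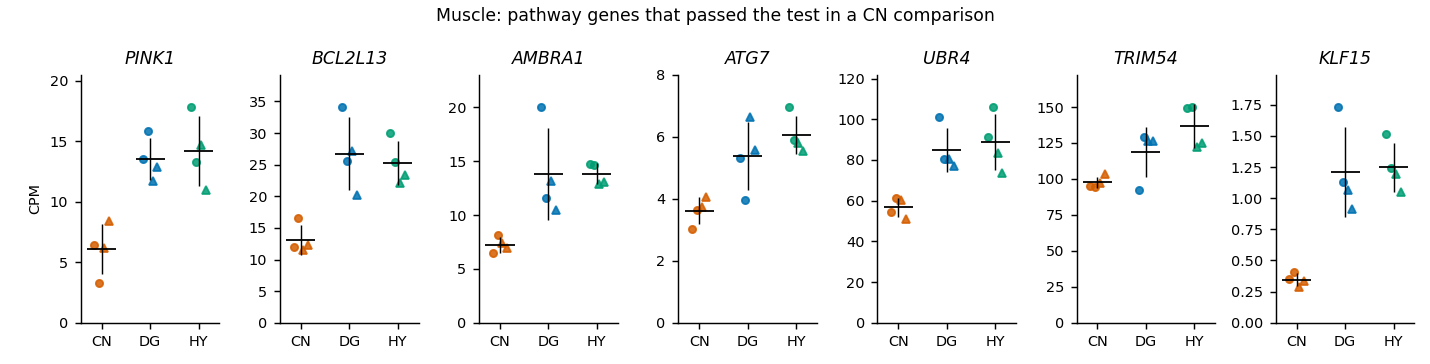
Level in longissimus dorsi muscle (y axis, CPM, linear from 0, a separate scale per gene) by maternal diet (x axis) of the 7 genes of the pathway lists that passed FDR ≤0.05 in a CN comparison. Circles are female and triangles male pools, with mean and SD of 4 pools; in PINK1, BCL2L13, AMBRA1, UBR4 and KLF15 no CN pool reaches any DG or HY pool. KLF15 passed the filter on low counts through DG and HY alone.

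In subcutaneous adipose tissue no member passed FDR ≤0.05 in any pair of diets by edgeR, as for all genes tested (0% called in each of the 3 comparisons). DESeq2 also called 0 members, while over all genes it called 226 for CN/DG, 0 for CN/HY and 814 for DG/HY. At unadjusted p under 0.05 there were 2 of 8 members for CN/DG, 0 for CN/HY and 2 for DG/HY, against 15.0%, 4.37% and 18.2% of all genes. SQSTM1 was at 58.6, 47.1, 35.3 and 39.0 CPM in CN, 93.8, 83.1, 56.4 and 81.6 CPM in DG, and 38.5, 80.4, 39.8 and 66.5 CPM in HY. Its 3 highest values were DG pools, while DG M1 lay below CN F1. The log2 CN/DG was -0.80 (SE 0.261, FDR = 0.265, exact permutation p = 0.0571) and the log2 CN/HY was -0.32 (SE 0.260, FDR = 0.941).

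UBR3 was the member with the largest diet difference in subcutaneous adipose tissue by point estimate. It was at 108, 120.4, 61.5 and 89.9 CPM in CN, 210.0, 277, 50.4 and 218 CPM in DG, and 60.7, 143, 56.4 and 95.6 CPM in HY. DG F1, F2 and M2 were above all other pools, and DG M1 was the lowest of all 12. The log2 differences were -0.99 for CN/DG (SE 0.452, FDR = 0.334) and 1.08 for DG/HY (SE 0.453, FDR = 0.237), neither called. The study named UBR3 among genes responding to the DG diet in this tissue, so its values here are not independent evidence.

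FOXO3 was highest in DG F2 and M2, with 92.6, 127, 78.2 and 126 CPM in DG, 78.8, 86.4, 54.1 and 75.8 CPM in CN, and 65.5, 109, 50.0 and 61.0 CPM in HY. Pools of all diets overlapped, and the log2 DG/HY was 0.57 (SE 0.251, FDR = 0.258). BNIP3 ranged 4.98-fold between pools, from 29.7 CPM in DG M1 to 148 CPM in DG F1, so that a single diet held both ends of its range. FBXO32 was at 21.1 to 28.8 CPM in CN but at 24.2 to 60.2 CPM in DG and 16.8 to 61.0 CPM in HY, and TRIM63 was at 46.9 to 123 CPM over all pools. Neither ligase was called in any comparison (log2 CN/DG = -0.77 for FBXO32, FDR = 0.385, and 0.23 for TRIM63, FDR = 0.675), nor were FOXO1 at 55.1 to 84.99 CPM and CTSL at 0.192 to 1.80 CPM.

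The level of some members in subcutaneous adipose tissue followed that of the skeletal muscle markers. The marker sum was 25549, 79300.4, 5020 and 12950 CPM in CN, 172362, 79149, 1128 and 98891 CPM in DG, and 990.3, 134445, 3525 and 38759.7 CPM in HY, so the 3 DG pools that were high in UBR3 were among the 5 with the highest marker sum, and DG M1 was low in both. Across the 12 pools, the log2 marker sum and log2 level correlated at Pearson's r = 0.893 and Spearman's rho = 0.909 for BNIP3 (permutation p = 0.00018 and 0.00012, adjusted over 8 relations 0.00072 and 0.00096). For UBR3 they were r = 0.890 and rho = 0.881 (permutation p = 0.00016 and 0.00035, adjusted 0.00072 and 0.0014). The relation was weaker for SQSTM1 (r = 0.747, rho = 0.783, permutation p = 0.00714 and 0.00364, adjusted 0.0190 and 0.00971) and FOXO3 (r = 0.680, rho = 0.727, permutation p = 0.0174 and 0.00983, adjusted 0.0348 and 0.0197). It was not detected for the muscle ligases FBXO32 (r = 0.501, rho = 0.385) and TRIM63 (r = 0.259, rho = 0.280), for FOXO1 (r = -0.249) or for CTSL (r = -0.235), whose adjusted permutation p-values were at least 0.159.

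Without the 2 pools farthest from the median marker sum, DG M1 and HY F1, r was 0.965 for BNIP3, 0.876 for UBR3, 0.873 for SQSTM1 and 0.839 for FOXO3. The labels give no batch. With the marker level as a covariate beside diet, the CN/DG difference of SQSTM1 was -0.68 (SE 0.146) and passed the threshold (FDR = 0.0471), as did 171 genes in all, whereas the DG/HY difference of UBR3 was 0.57 in place of 1.08 and its CN/DG difference was -0.61 in place of -0.99 (FDR = 0.186 and 0.156). The part of muscle tissue in the diet differences of subcutaneous adipose tissue was not tested beyond this covariate.

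**Figure D4:**
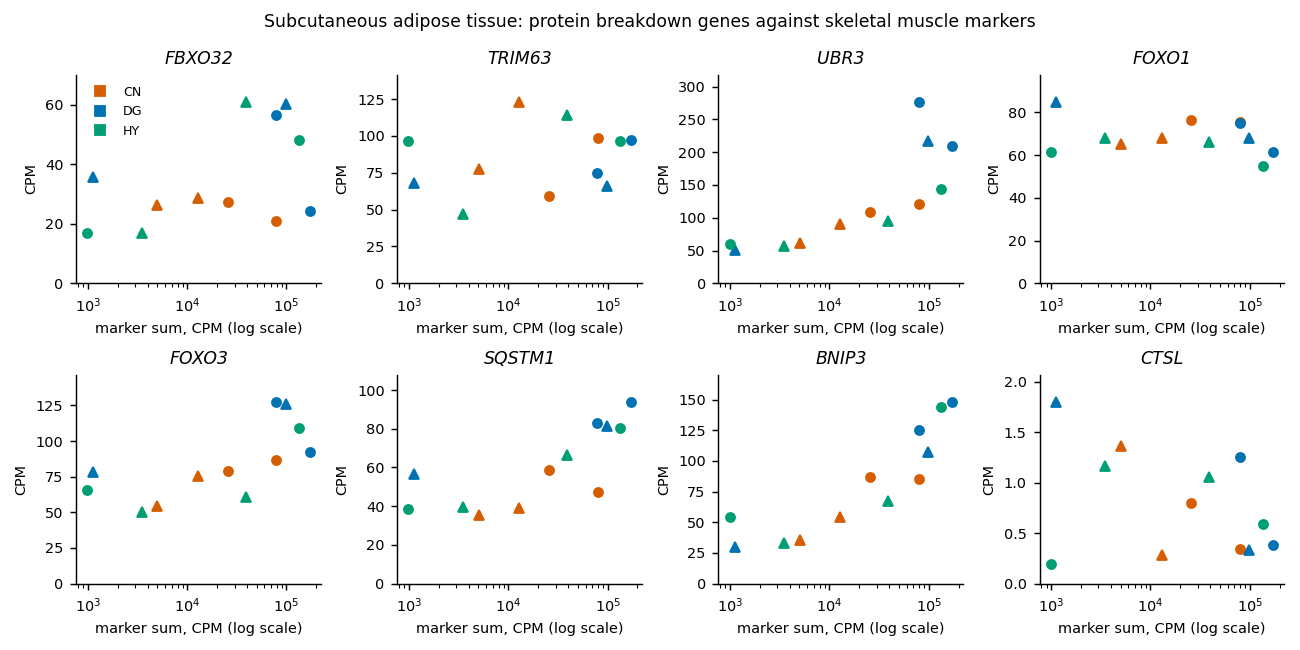
Level of each gene in the 12 subcutaneous adipose pools (y axis, CPM, linear from 0) against the summed level of 18 skeletal muscle markers in the same library (x axis, CPM, log scale), coloured by diet, circles female and triangles male. BNIP3 and UBR3 climb with the marker sum (r = 0.893 and 0.890), whereas TRIM63 is at 96.5 CPM in the pool with the lowest sum, 990.3 CPM.

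In perirenal adipose tissue no member was called by edgeR, as for all genes tested (0% in each comparison). DESeq2 also called 0 members, while over all genes it called 248 for CN/DG, 2 for CN/HY and 89 for DG/HY. At unadjusted p under 0.05 there were 0 of 8 members for CN/DG, 0 for CN/HY and 1 for DG/HY, against 9.85%, 2.34% and 9.96% of all genes. SQSTM1 was at 39.2, 39.6, 46.0 and 35.2 CPM in CN, 51.3, 50.3, 55.6 and 43.7 CPM in DG, and 60.1, 36.9, 40.02 and 40.8 CPM in HY. DG M2 fell below CN M1, the other DG pools being above all CN pools, and HY F1 was the highest pool. The log2 CN/DG was -0.33 (SE 0.155, FDR = 0.512, exact permutation p = 0.0571). The 1 member at unadjusted p under 0.05 was CTSL, with 13 to 24 counts per library in DG and 5 to 20 counts in HY (log2 DG/HY = 1.09, SE 0.465, FDR = 0.472). FBXO32 and TRIM63 were near the limit of detection, with 4 to 15 and 1 to 24 counts per library.

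SQSTM1 was lower in CN than in DG by point estimate in all 3 tissues, with a log2 difference of -1.54 for muscle against -0.80 and -0.33 for the subcutaneous and perirenal depots. Whether the diet response differed between tissues was tested as an interaction in a fit to all 36 libraries, with the pool as a block because a pool holds the same fetuses in each tissue. For CN/DG, the perirenal response of SQSTM1 was 1.21 higher than that of muscle on the log2 scale (SE 0.288, unadjusted p = 0.000352, FDR = 1) and the subcutaneous response was 0.77 higher (SE 0.288, FDR = 0.576). For CN/HY these differences were 1.29 (SE 0.289, unadjusted p = 0.000179, FDR = 0.552) and 1.14 (SE 0.289, FDR = 0.359). None passed after adjustment over the 13283 genes tested, so a difference of the response between tissues was not established.

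No member was called by edgeR or DESeq2 in any of the 9 interactions, whereas DESeq2 called 15 to 1432 of all genes in 4 of them. The share of all genes called by edgeR was 0% in 7 of them, 0.0226% for CN against DG between the adipose tissues and 6.26% for DG against HY between the adipose tissues. At unadjusted p under 0.05 there were 1, 2 and 1 of 8 members for CN/DG (subcutaneous against muscle, perirenal against muscle, and between the adipose tissues), against 7.75%, 3.20% and 10.3% of all genes. In the same order there were 1, 1 and 0 members for CN/HY, against 6.88%, 6.63% and 7.45%, and 2, 1 and 2 members for DG/HY, against 18.3%, 2.26% and 24.2%. The counts against muscle include CTSL, which failed the filter in muscle and passed that of this fit through its adipose values. For perirenal adipose tissue against muscle, CTSL was among the members counted for CN/DG and was the only member counted for DG/HY. Those entries therefore carry no weight. For DG/HY between the adipose tissues, FOXO3 had a log2 difference of 0.68 (SE 0.264, FDR = 0.115) and UBR3 of 1.09 (SE 0.432, FDR = 0.124). Against muscle, the subcutaneous DG/HY response of UBR3 was 1.08 higher (SE 0.431, FDR = 0.194) and that of FOXO3 was 0.66 higher (SE 0.262, FDR = 0.192). Leaving out single pools changed these calls. Without DG M1, UBR3 passed FDR ≤0.05 in both interactions (FDR = 0.0183 between the adipose tissues and 0.0190 against muscle), and without HY F2, UBR3 and FOXO3 passed between the adipose tissues (FDR = 0.0161 for FOXO3). In subcutaneous adipose tissue DG M1 is the DG pool with the lowest muscle marker sum and HY F2 the HY pool with the highest. There DG M1 was also the DG pool lowest in UBR3, and HY F2 the HY pool highest in UBR3 and FOXO3. Leaving out these pools therefore widens the DG/HY difference. The share of all genes called in these runs is not given here, so these passes carry no weight.

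The levels of most members differed between tissues. Over all 12 pools, FBXO32 was at 11.1 ± 3.35 CPM in muscle, 35.3 ± 16.8 CPM in subcutaneous and 0.728 ± 0.299 CPM in perirenal adipose tissue. TRIM63 was at 52.6 ± 11.9, 84.9 ± 23.0 and 1.10 ± 0.567 CPM in the same order. In the fit to all 36 libraries both muscle ligases were highest in subcutaneous adipose tissue. They stood 2.64-fold (FBXO32) and 1.41-fold (TRIM63) above muscle, and 53.9-fold and 90.5-fold above perirenal adipose tissue. CPM values were scaled within a tissue, so ratios of the CPM means differ from the folds of the fit. No perirenal pool came near the lowest muscle or subcutaneous pool for either ligase. ENSOARG00000005477, which shares the TRIM63 span, ran the other way, at 53.0 to 148 CPM in perirenal adipose tissue. It was at 0.331 to 1.34 CPM in muscle and 0.891 to 7.62 CPM in subcutaneous adipose tissue. Whether reads of this span were assigned differently in each tissue was not tested, so the TRIM63 differences between tissues carry that limit.

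SQSTM1 was lowest in muscle, at 16.5 ± 7.43 CPM, against 60.003 ± 20.7 CPM in subcutaneous and 44.9 ± 7.85 CPM in perirenal adipose tissue (log2 muscle/subcutaneous = -1.80, SE 0.120). BNIP3 and UBR3 were highest in muscle and lowest in perirenal adipose tissue, with 191 ± 38.0, 80.9 ± 42.4 and 42.6 ± 4.91 CPM for BNIP3 and 177 ± 23.6, 124 ± 73.8 and 67.0 ± 8.24 CPM for UBR3 in muscle, subcutaneous and perirenal adipose tissue. In subcutaneous adipose tissue their coefficients of variation were 52.5% and 59.4%, against 19.9% and 13.3% in muscle. FOXO1 was at 75.6 ± 6.996, 68.8 ± 8.11 and 60.4 ± 9.54 CPM and FOXO3 at 81.1 ± 19.6, 83.7 ± 25.9 and 53.8 ± 4.95 CPM.

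In the 36-library fit, with CTSL left out of the counts against muscle, 6 of 7 members were called between muscle and subcutaneous adipose tissue, 7 of 7 between muscle and perirenal adipose tissue and 7 of 8 between the adipose tissues, against 72.1%, 80.3% and 66.9% of all genes, so these counts are near what most genes showed. The neighbours that did not differ beyond their spread were FOXO3 in muscle and subcutaneous adipose tissue (log2 0.15, FDR = 0.219) and CTSL in the adipose tissues (log2 -0.40, FDR = 0.158). CTSL passed the filter of this fit through its adipose values, so its comparison with muscle is not counted. Loci were assembled separately per tissue and their borders differ, so the levels between tissues carry that limit. For example, the SQSTM1 locus reached 1167806 on chromosome 5 in subcutaneous adipose tissue. The FBXO32 locus ended at 29210013 on chromosome 9 in perirenal adipose tissue, against 29215409 in muscle and 29215450 in subcutaneous adipose tissue.

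With only the 4 pools whose subcutaneous library had a marker sum under 10000 CPM, the subcutaneous level of BNIP3 was close to the perirenal level (log2 0.08) and that of UBR3 was 0.06 below it. FBXO32 and TRIM63 still stood 5.28 and 6.42 above perirenal adipose tissue on the log2 scale, and their difference from muscle was -0.70 (FDR = 0.0509) and -0.39 (FDR = 0.167). FOXO3, which was not called between muscle and subcutaneous adipose tissue over all pools, was then called with a log2 difference of 0.61 (FDR = 0.00750).

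**Figure D5:**
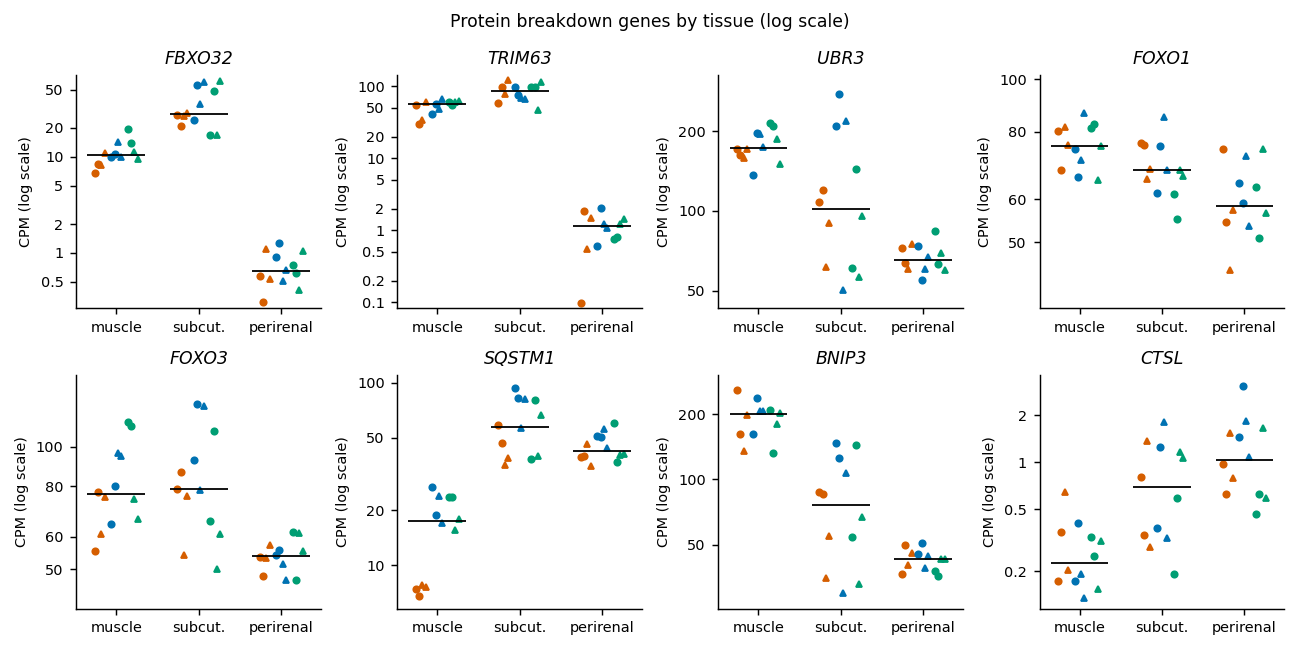
Level of each gene (y axis, CPM, log scale with a separate range per gene) in muscle, subcutaneous and perirenal adipose tissue (x axis), 12 pools each, coloured by diet (orange CN, blue DG, green HY), circles female and triangles male, with the median as a line. FBXO32 and TRIM63 reach at most 2.04 CPM in perirenal adipose tissue, and SQSTM1 in muscle shows the 4 CN pools apart from the others.

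Sex was compared over 6 female and 6 male pools per tissue, the diet being part of the model. No member was called by edgeR in any tissue, against 0% of all genes in muscle and in subcutaneous adipose tissue and 0.0223% in perirenal adipose tissue. BNIP3 in subcutaneous adipose tissue came nearest, at 107 ± 37.5 CPM in 6 female and 54.4 ± 29.6 CPM in 6 male pools (log2 0.98, SE 0.329, FDR = 0.288), in the tissue where it followed the muscle markers.

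For each member the genes with the most similar profile were sought among 10629 genes by the root mean square difference of log2 CPM, centred on each gene's mean, over the 36 libraries. SQSTM1 was closest to NKIRAS2 (0.324), followed by LMNB2 and TPD52. FBXO32 was closest to YOD1 (0.630), ITGB8 and GDF11, and TRIM63 to PAK3 (0.618). BNIP3 was closest to RILPL1 (0.290), CASZ1 and IER3, UBR3 to FXR1 (0.206), KIAA1715 and C6orf106, and FOXO1 to SNX9 (0.158), ERCC8 and STXBP4. EIF5 and UBFD1 were among the 3 genes most like FOXO3. KCNMB1 and EHD3 were among the 3 most like CTSL, with few reads behind its profile. These distances are descriptions and say nothing of shared function.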

How the data were processed

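Libraries were made from pooled total RNA with the Illumina mRNA-Seq protocol and sequenced on an Illumina HiSeq instrument. The deposited values are raw read counts per locus, one set per library, which the authors obtained from loci assembled separately for each tissue on Oar_v3.1. The submitters' processing notes name TopHat2 2.0.4, Cufflinks 2.1.1 and HTSeq, the role of the last not being given in the sources used here. At alignment, reads matching too many locations equally well were dropped by the authors, and how the remaining multi-mapped reads were counted is not given. Strand use in counting is likewise not given, so overlapping genes may share reads.

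Counts of loci of the same name were summed within a library, and no library was left out. Genes were filtered with filterByExpr (minimum count 10, minimum total 15), leaving 18157 (muscle), 17745 (subcutaneous) and 17926 (perirenal) genes. CPM values, counts scaled to the library total, used TMM factors within a tissue. Diets were compared by the quasi-likelihood test of edgeR 4.0.16 (R 4.3.3) in the 12 pools of a tissue, with Benjamini-Hochberg adjustment over all genes tested (FDR ≤0.05, with FDR ≤0.20 beside it). Standard errors were derived from the F statistic. Interactions and tissue differences used all 36 libraries with the pool as a block. Single values were compared by exact two-sided permutation of pools, and correlations by 100000 resamples. The procedure was tested on simulated data.

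Described genes were all members; up to 5 genes of the pathway lists per tissue and comparison with the smallest FDR under the threshold; and the 3 most similar genes per member, of which some are not reported here. The members and lists were chosen with earlier results of these data known. Marker lists covered skeletal muscle, adipocytes, brown adipocytes, macrophages and leukocytes (summed level 16.3 to 75.6 CPM per library), endothelium, red blood cells (2.51 to 74.4 CPM) and smooth muscle. Alternatives were RLE size factors, no filter, the likelihood-ratio test, DESeq2 1.42.0, a replicate block, the 8 pools of a pair of diets, loci kept separate, marker covariates, and each pool left out. Thinned libraries and the 4 pools with low marker sums were added after seeing the data.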

Additional observations from a re-analysis of the deposited data

Results flagged for a closer look

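Among 72 groups of 4 pools (8 genes, 3 tissues and 3 diets), 2 held a pool far from the other 3, and chance alone gives about 1 in 20 groups. In perirenal adipose tissue under HY, SQSTM1 was at 60.1 CPM in pool F1, against 36.9 to 40.8 CPM in the other pools. In the same tissue and diet, CTSL was at 1.65 CPM (20 counts) in pool M1, against 0.468 to 0.626 CPM (5 to 7 counts) in the others.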

How the results depend on the processing

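SQSTM1 in muscle was called in every alternative run for CN against DG and for CN against HY. Its log2 CN/DG ranged from -1.64 to -1.43 with each pool left out (FDR 0.00336 to 0.0184) and its log2 CN/HY from -1.55 to -1.36 (FDR 0.00335 to 0.0330). DESeq2 gave an FDR of 1.14e-11 and 3.68e-10. The mean correlation of the deviations of same-numbered pools of different diets was -0.047 in muscle (0.019 for different numbers), 0.201 in subcutaneous (-0.072) and 0.054 in perirenal adipose tissue (-0.018). In each tissue some same-numbered pairs correlated negatively (lowest -0.387, -0.438 and -0.0762), so the numbers were not taken to pair the diets, though in subcutaneous adipose tissue they were more alike on average. With the replicate block, SQSTM1 in muscle gave -1.53 (FDR = 0.0106) and -1.44 (FDR = 0.0171), and the members called per comparison of diets stayed at 1, 1 and 0 in muscle and 0 in the adipose tissues. Over all genes the block moved the calls in muscle from 186 to 134 for CN/DG and from 536 to 270 for CN/HY, and in subcutaneous adipose tissue from 0 to 281 for DG/HY. DESeq2 called 689 and 1332 genes for CN/DG and CN/HY in muscle.

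Skeletal muscle markers as a covariate moved the members called for CN against DG in subcutaneous adipose tissue from 0 to 1 (SQSTM1), and all genes called from 0 to 171. With each pool left out, the members called in the interaction of DG against HY ranged from 0 to 1 between subcutaneous adipose tissue and muscle (UBR3 without DG M1) and from 0 to 2 between the adipose tissues (UBR3 without DG M1, UBR3 and FOXO3 without HY F2). The share of all genes called without these pools is not given here, and leaving them out widens the difference, so these passes carry no weight. With the 4 pools of low marker sum, members called, CTSL included, fell from 7 to 5 between muscle and subcutaneous adipose tissue and from 7 to 2 between the adipose tissues, where SQSTM1 (log2 -0.0724) and UBR3 (log2 -0.0643) changed sign. All genes called fell from 9580 to 7841 and from 8888 to 3420. That setting has fewer samples, and the cause was not tested further. CTSL in every tissue and FBXO32 and TRIM63 in perirenal adipose tissue had too few reads for small differences to be detectable.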
